A study of Homo sapiens with 8 samples.

Results

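The 10 genes described here encode the subunits of the transcription factor NF-κB and its inhibitors and regulators. They are NFKB1, NFKB2, RELA, RELB and REL, the 5 subunits, and NFKBIA, NFKBIB, NFKBIE, TNFAIP3 and BCL3, the inhibitors and regulators. They were chosen by name, and all 10 were among the 12715 genes listed for at least 1 of the cell lines and were listed and tested in both. The samples were poly(A)-selected RNA of CAL-62 and BCPAP, both established from human thyroid carcinomas and both labelled anaplastic; BCPAP is otherwise known as a line from a papillary carcinoma. The groups were CAL-62 given THZ1, CAL-62 given the vehicle DMSO, BCPAP given THZ1 and BCPAP given DMSO, with 2 libraries each. THZ1, a covalent inhibitor of the transcription kinase CDK7, was used at 100 nM for 6 h, and the question the comparison addresses is how each line's transcripts respond to it. CAL-62 was grown in DMEM with 20% serum and BCPAP in RPMI 1640 with 10%, so differences of line and of medium cannot be told apart.

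NF-κB is a family of dimers that sit in the cytoplasm bound to inhibitors of the IκB family. Signals from receptors of tumour necrosis factor and interleukin 1 activate the IκB kinases, the IκB protein is ubiquitinated and degraded, and the dimer enters the nucleus to switch on cytokine, adhesion and survival genes. Several of its targets are its own inhibitors and subunits, so the family is known for negative feedback, and in many carcinomas, thyroid carcinoma among them, the pathway is described as active.

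Levels are in an RPKM-type unit (reads per length of the gene and per a scaled library size that is not the plain sum of reads), so levels of different genes can be compared. A change is the mean log2(value + 1) after THZ1 minus that under DMSO, with the standard error (SE) of a limma fit across all genes. For a gene listed in both lines the spread was estimated once over all groups. Its SE is therefore the same in both lines and does not measure the spread of that line alone. Adjusted p-values use the Benjamini-Hochberg method over all genes tested in that line; genes with one below 0.05 count as called. The log2(value + 1) scale understates the change of genes with low levels. In CAL-62, 525 of 11362 genes were called (4.62%), 459 lower and 66 higher. In BCPAP, limma called 0 of 11743 genes (0.0%), with 471 (4.01%) at an unadjusted p under 0.05. Run on whole reads recovered from the values, limma-voom called 0 of the 10653 genes tested in both lines. The CAL-62 count ranged from 0 to 811 when single libraries were left out, and it was 0 without DMSO replicate 2 of CAL-62 and 9 without DMSO replicate 1 of CAL-62. Whether the replicates are separate cultures is not labelled, so every p-value reflects the spread among these libraries alone, possibly a technical one.

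Each library held between 16680749 and 19987389 reads in listed genes, and the 10 genes had 32 to 3895 reads in a CAL-62 library and 62 to 3475 in a BCPAP library. Of 12 thyroid lineage markers, PAX8 and HHEX were listed in CAL-62, and PAX8, NKX2-1, FOXE1 and HHEX in BCPAP; thyroglobulin (TG) and the TSH receptor (TSHR) were listed in neither. Of 7 epithelial markers, 5 were listed in CAL-62 and 4 in BCPAP. PAX8, the thyroid lineage factor, fell in CAL-62 to 5.20 and 29.8 after THZ1, against 91.1 and 117 under DMSO (limma adjusted p = 0.0469). HHEX, the other of the 2 lineage markers tested there, had a positive change. The summed level of the listed epithelial markers in CAL-62 was 2277 to 2915 after THZ1 and 1360 to 1691 under DMSO. The part of these lineage and epithelial markers in the results was not tested. CD68 was the only one of 9 blood cell markers listed, COL1A1 the only one of 7 fibroblast markers, and of 6 endothelial markers 0 were listed in either line. CD68 stood at 26.3 and 25.0 in the CAL-62 THZ1 libraries, against 16.3 and 13.2 in the DMSO libraries (limma adjusted p = 0.0742), and its part in the results was not tested. PTPRC, the defining marker of blood cells, was listed in neither line. In bulk RNA of this kind, fewer cells of a type and less RNA per cell cannot be told apart.

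The promoters of several of these genes carry the sequence that the factor itself binds. The windows are shown because feedback through κB sites is the textbook property of this family. Of the 10 genes, 8 were matched in the RefSeq promoter table (build GRCh38.p14), with 13 annotated starts; NFKBIE and RELB are named only. The κB consensus was searched on both strands in the 250 bases before each start. It was found for 6 of the 8 genes (75%), against 11.8% of 27305 RefSeq genes, and for 7 of 13 starts, against 9.96% of 35116 starts. These counts describe letters in a window and were not tested, and a match is not evidence of binding in these cells. The first start with a match in each of the 6 genes is printed 5′ to 3′ on the gene's strand, with the matched letters in capitals and up to 20 bases on each side; matches that overlap are drawn as 1 run.
NFKB1, chr4:102501290-102501339, plus strand: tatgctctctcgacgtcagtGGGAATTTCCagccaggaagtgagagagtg
NFKB2, chr10:102394451-102394529, plus strand: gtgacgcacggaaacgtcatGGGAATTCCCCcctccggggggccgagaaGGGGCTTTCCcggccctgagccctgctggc
REL, chr2:60881507-60881557, plus strand: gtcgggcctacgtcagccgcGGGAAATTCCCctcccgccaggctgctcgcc
NFKBIA, chr14:35404801-35404850, minus strand: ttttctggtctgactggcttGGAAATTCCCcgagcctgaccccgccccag
NFKBIB, chr19:38899921-38899968, plus strand: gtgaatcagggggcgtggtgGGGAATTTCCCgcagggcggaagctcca
TNFAIP3, chr6:137867172-137867233, plus strand: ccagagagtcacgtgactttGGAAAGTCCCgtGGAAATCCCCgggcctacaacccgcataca

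The matches lay between 176 and 12 bases before a start. In NFKB1 the match ran from 49 to 40 bases before the start, in NFKBIA from 81 to 72, and in REL the overlapping pair from 47 to 37. TNFAIP3 held a pair of separate matches, at 67 to 58 and 55 to 46 bases before its start. NFKB2 held none before the first of its annotated starts, matches from 107 to 97 and 78 to 69 bases before the next, and from 176 to 167 and 21 to 12 bases before the last. In the windows of RELA and BCL3 these letters were not found, which says nothing about whether the factor acts on them.

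**Figure D1:**
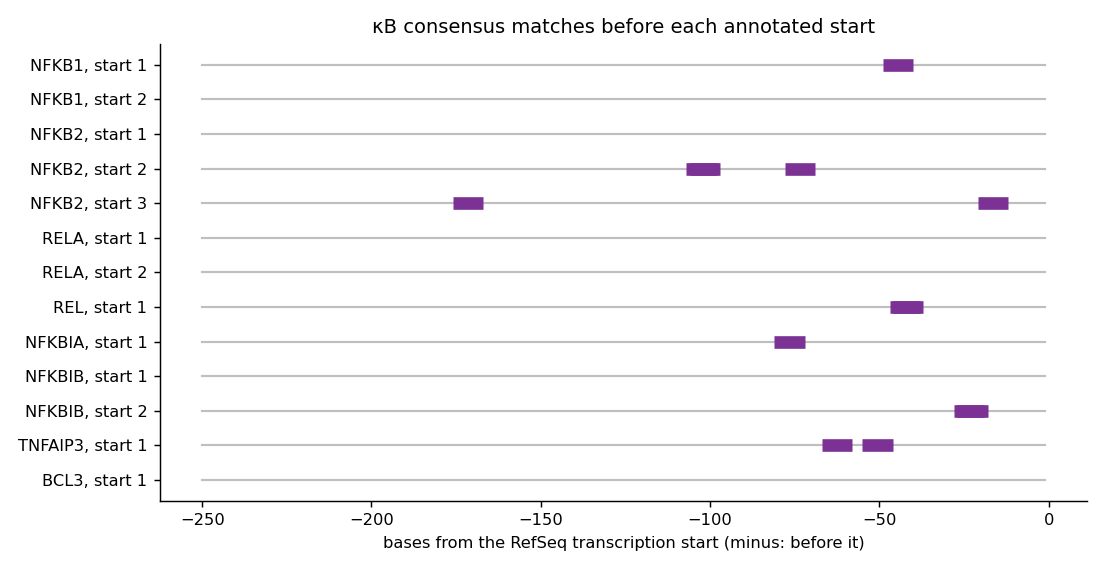
Positions of κB consensus matches (purple blocks) in the 250 bases before each of 13 RefSeq starts of 8 genes; the horizontal axis is the distance in bases from the start. The windows of 7 starts hold a match, and the windows of RELA and BCL3 hold none.

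The 10 genes did not all differ in 1 direction after THZ1. In CAL-62, 8 of the 10 genes had a negative change, as 48.2% of all genes did, and 2 a positive one. In that line 1 gene, the inhibitor gene NFKBIE, passed the test and was lower, against 4.04% of all genes called lower. The THZ1 and DMSO libraries did not overlap for 4 genes that were lower (RELA, NFKB2, NFKBIE and BCL3) and for NFKB1, which was higher. Over all CAL-62 genes, 27.4% were lower and 30.1% higher without overlap. The median change of the 10 genes was -0.54, beside 0.031 for all CAL-62 genes. By role it was -0.50 for the subunits, and -0.16 without DMSO replicate 2 or -1.07 without THZ1 replicate 2 of CAL-62. For the inhibitors and regulators it was -0.59, and -1.05 without DMSO replicate 1 or 0.069 without DMSO replicate 2 of CAL-62. In BCPAP 6 changes were negative, as were 41.4% of those of all genes, and 4 positive, with a median of -0.079 beside 0.067 for all genes, and 0 of the 10 were called. There 3 genes (RELA, NFKB2 and RELB) were lower and 2 (NFKB1 and REL) higher without overlap, where 16.4% and 21.9% of all genes were.

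**Figure D2:**
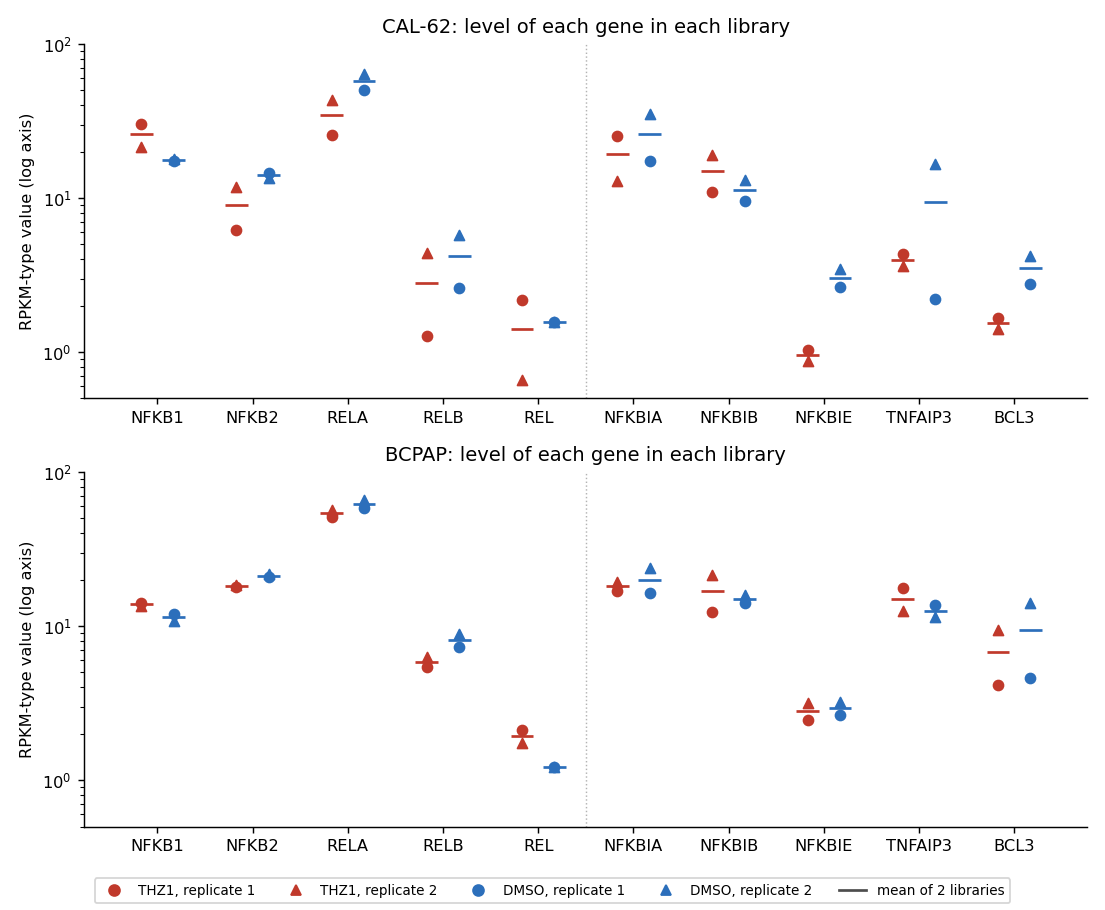
Level of each of the 10 genes in each library (RPKM-type value, log axis), CAL-62 above and BCPAP below; red points are THZ1 and blue points DMSO, circles replicate 1, triangles replicate 2, and bars the mean of 2 libraries. NFKBIE sits near 1 in both CAL-62 THZ1 libraries and at 2.64 and 3.45 in the DMSO libraries, and TNFAIP3 in CAL-62 DMSO is spread from 2.21 to 16.5.

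RELA, the subunit with a transactivation domain that makes up most active NF-κB in epithelial cells, had the highest mean level of the 10 genes in every group. It stood at 25.6 and 43.2 in the CAL-62 THZ1 libraries, against 50.1 and 64.1 in the DMSO libraries. Both treated libraries lay below both controls (change -0.75, SE 0.27, limma adjusted p = 0.119), so the difference did not pass the test. Without THZ1 replicate 1 of CAL-62 the change was -0.38, and without THZ1 replicate 2 it was -1.12. BCPAP had 51.2 and 56.7 after THZ1, against 58.4 and 65.5 under DMSO, which again do not overlap but lie much closer (change -0.20, SE 0.27, limma adjusted p = 0.941).

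NFKB1 encodes a precursor that is processed to a DNA-binding subunit without a transactivation domain, the usual partner of RELA. Its level was 30.4 and 21.5 in CAL-62 after THZ1, against 17.5 and 17.8 under DMSO. It is the member of the family for which both treated CAL-62 libraries lay above both controls (change 0.51, SE 0.22, limma adjusted p = 0.17), without passing the test. The BCPAP libraries had 14.1 and 13.5 after THZ1 and 11.9 and 10.8 under DMSO (change 0.26, SE 0.22, limma adjusted p = 0.932). Without THZ1 replicate 1 of CAL-62 its change there was 0.27, and without THZ1 replicate 2 it was 0.75. The point change of NFKB1 in CAL-62 was positive in every alternative except scaling to ribosomal protein genes, where it was -0.39.

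NFKB2, whose precursor acts as an inhibitor until the non-canonical pathway processes it, had lower values after THZ1. CAL-62 had 6.17 and 11.8 after THZ1, against 14.6 and 13.6 under DMSO (change -0.66, SE 0.28, limma adjusted p = 0.164). Replicate 1 of THZ1 was the lowest of the 4 libraries, and without THZ1 replicate 2 of CAL-62 the change was -1.07 and passed the test (limma adjusted p = 0.0492), whereas without THZ1 replicate 1 of CAL-62 it was -0.24. In BCPAP the treated libraries had 18.1 and 18.5 and the DMSO libraries 20.8 and 21.8 (change -0.21, SE 0.28, limma adjusted p = 0.941).

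RELB, the partner of the processed NFKB2 product in the non-canonical pathway, was low in both lines. CAL-62 had 1.27 and 4.39 after THZ1, against 2.60 and 5.75 under DMSO, and the groups overlapped (change -0.50, SE 0.45, limma adjusted p = 0.483). The CAL-62 replicates of a treatment differed more from each other than the treatments did, and without THZ1 replicate 1 of CAL-62 the change was 0.13. BCPAP had 5.43 and 6.34 after THZ1, against 7.32 and 8.91 under DMSO (change -0.40, SE 0.45, limma adjusted p = 0.938).

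REL, the subunit best known from lymphocytes, was among the least abundant of the 10. In CAL-62 it had 2.18 and 0.660 after THZ1, from 78 and 32 reads, against 1.57 in each DMSO library, from 88 and 96 reads (change -0.16, SE 0.31, limma adjusted p = 0.749). The treated libraries lay on either side of the controls. BCPAP had 2.11 and 1.74 after THZ1, against 1.21 and 1.22 under DMSO, without overlap but also without passing the test (change 0.40, SE 0.31, limma adjusted p = 0.932).

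Because the changes of RELA and NFKB1 had opposite signs, their ratio within each library, in which library scaling cancels, was compared; the pair was chosen after the values were seen, so the ratios are given with no test. RELA over NFKB1 was 0.842 and 2.01 in CAL-62 after THZ1, against 2.87 and 3.59 under DMSO. BCPAP had 3.62 and 4.19 after THZ1, against 4.89 and 6.04 under DMSO. In both lines both treated libraries lay below both controls, and in THZ1 replicate 1 of CAL-62 NFKB1 was the more abundant of the pair. NFKB2 over NFKB1 had the same order, with 0.203 and 0.547 after THZ1 against 0.839 and 0.760 under DMSO in CAL-62, and 1.28 and 1.37 against 1.74 and 2.01 in BCPAP. The order of both ratios follows from the single genes. RELA and NFKB2 were lower and NFKB1 higher without overlap in both lines, so it adds nothing to them. As a share of the summed level of the 5 subunits, RELA took 39.0% and 53.0% in CAL-62 after THZ1, against 58.0% and 62.4% under DMSO. The RELA share in BCPAP was 56.3% and 58.5% after THZ1 and 58.6% and 60.5% under DMSO.

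**Figure D3:**
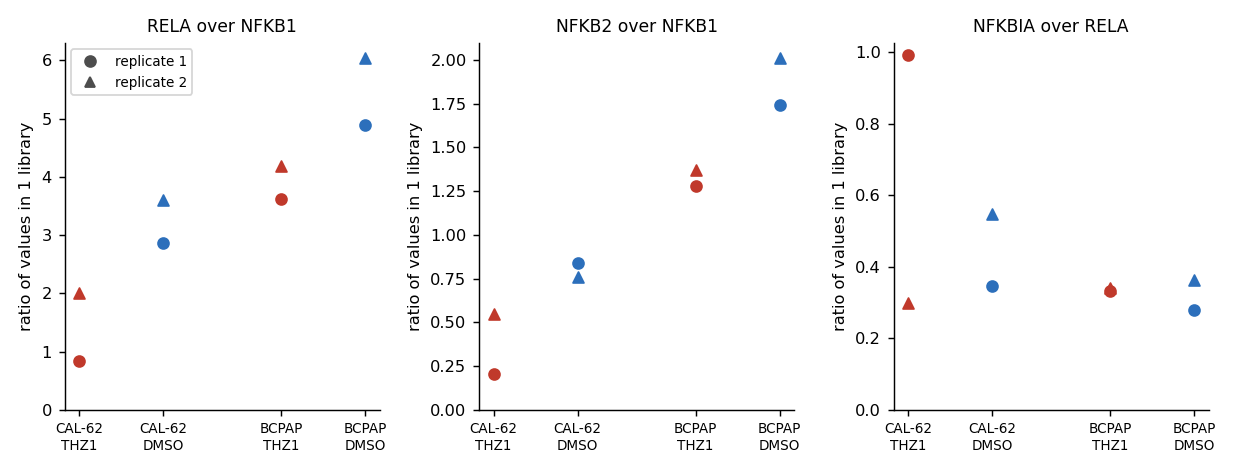
Ratios of levels within single libraries (linear axes from 0) for RELA over NFKB1, NFKB2 over NFKB1 and NFKBIA over RELA; red points are THZ1, blue points DMSO, circles replicate 1 and triangles replicate 2. The first 2 ratios are lower in both THZ1 libraries than in both DMSO libraries of each line, which follows from the levels of the single genes. NFKBIA over RELA overlaps between treatments in both lines.

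NFKBIE, which encodes IκB epsilon, a cytoplasmic inhibitor of RELA- and REL-containing dimers, was the 1 gene of the family that passed the test. It fell in CAL-62 to 1.04 and 0.870 after THZ1, against 2.64 and 3.45 under DMSO, or 0.954 ± 0.119 against 3.05 ± 0.575 (SD, n = 2 each; change -1.04, SE 0.23, limma adjusted p = 0.0469). The reads behind these values were 37 and 42 after THZ1 and 147 and 210 under DMSO. NFKBIE was listed in CAL-62 through its DMSO level, because genes were listed there by a DMSO mean above about 1. Within replicate number 1 the change was -0.84 and within number 2 it was -1.25. The adjusted p lies just under the threshold: the call was lost without any 1 of the 4 CAL-62 libraries (limma adjusted p = 0.0869 to 0.249) and without either BCPAP DMSO library (0.0963 and 0.0967), while the change stayed between -1.19 and -0.90. BCPAP had 2.46 and 3.17 after THZ1, against 2.66 and 3.20 under DMSO (change -0.05, SE 0.23, limma adjusted p = 0.985). The difference of the responses, CAL-62 minus BCPAP, was -1.0 (SE 0.33) with an unadjusted p of 0.0158 and a limma adjusted p of 0.834, so the response of NFKBIE is not shown to differ between the lines.

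NFKBIA encodes IκB alpha, the rapid feedback inhibitor whose transcript NF-κB itself induces. Its CAL-62 levels were 25.4 and 13.0 after THZ1, against 17.3 and 35.2 under DMSO (change -0.42, SE 0.41, limma adjusted p = 0.513). The 4 libraries interleave, and the sign depends on the replicate number, with 0.53 in number 1 and -1.37 in number 2. Without DMSO replicate 2 of CAL-62 the change was 0.069, and without THZ1 replicate 2 of CAL-62 it was 0.036. BCPAP had 17.0 and 19.4 after THZ1, against 16.3 and 23.8 under DMSO (change -0.11, SE 0.41, limma adjusted p = 0.975). The ratio of NFKBIA to RELA, again chosen after the values were seen, was 0.991 and 0.30 in CAL-62 after THZ1 and 0.345 and 0.548 under DMSO. In BCPAP it was 0.332 and 0.342 after THZ1 and 0.279 and 0.364 under DMSO.

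NFKBIB, encoding IκB beta, the slower of the classical inhibitors, had 10.9 and 18.9 in CAL-62 after THZ1, against 9.59 and 13.0 under DMSO (change 0.34, SE 0.35, limma adjusted p = 0.537). BCPAP had 12.3 and 21.5 after THZ1, against 14.2 and 15.9 under DMSO (change 0.11, SE 0.35, limma adjusted p = 0.974). The groups overlapped in both lines, and replicate 2 exceeded replicate 1 in all 4 groups. Scaled to the sum of reads or to ribosomal protein genes, the point change turned negative in both lines.

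TNFAIP3 encodes a ubiquitin-editing enzyme that shuts the pathway off upstream of the IκB kinases, and is a classical NF-κB target. In CAL-62 it had 4.36 and 3.6 after THZ1, against 2.21 and 16.5 under DMSO. The controls differed from each other far more than the treated libraries did, with 211 and 1725 reads behind them. The change was -0.59 (SE 0.67, limma adjusted p = 0.577), made of 0.74 in replicate number 1 and -1.93 in number 2, and without DMSO replicate 2 of CAL-62 it was 0.63. BCPAP had 17.6 and 12.5 after THZ1, against 13.7 and 11.4 under DMSO (change 0.23, SE 0.67, limma adjusted p = 0.972).

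BCL3, a nuclear protein of the IκB family that works with dimers of the NFKB1 and NFKB2 products, had 1.67 and 1.41 in CAL-62 after THZ1, against 2.76 and 4.23 under DMSO. Both treated libraries lay below both controls, from 43 and 49 reads against 111 and 186, but the difference did not pass the test (change -0.81, SE 0.51, limma adjusted p = 0.317). Its replicates lay furthest apart in BCPAP, where replicate 2 was high under both treatments, with 4.12 and 9.42 after THZ1 against 4.58 and 14.1 under DMSO (change -0.33, SE 0.51, limma adjusted p = 0.944).

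**Figure D4:**
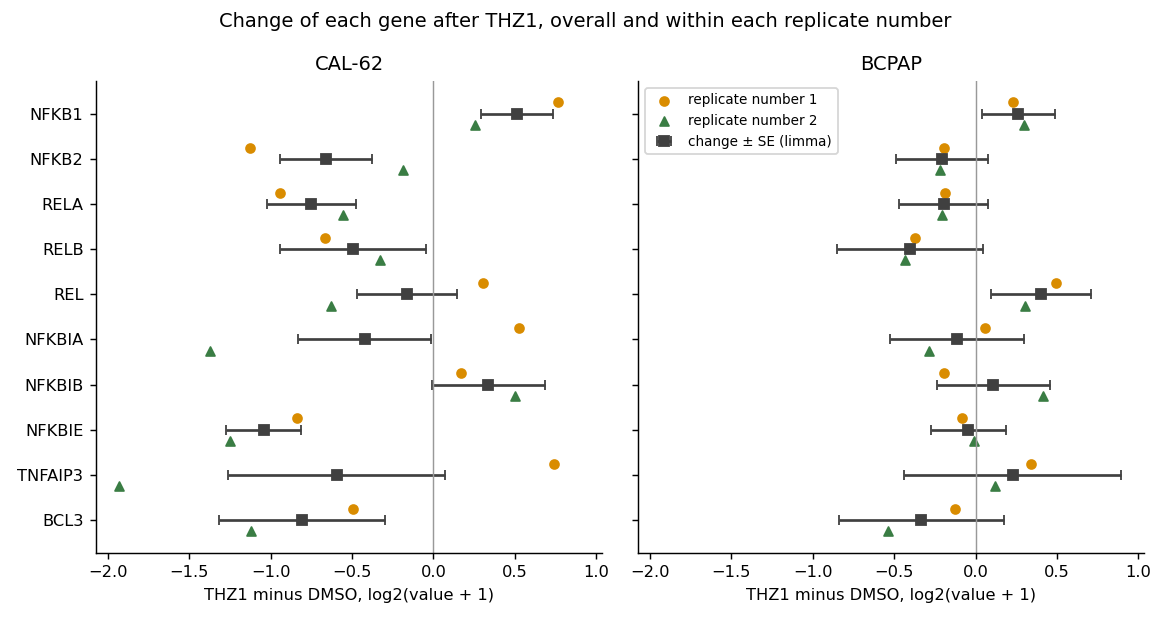
Change of each gene after THZ1 in log2(value + 1), CAL-62 left and BCPAP right; squares with bars are the limma change ± SE, circles the change within replicate number 1 and triangles that within number 2. NFKBIE is at -1.04 in CAL-62 with both numbers below 0, while NFKBIA, TNFAIP3 and REL have opposite signs in the 2 numbers.

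Between the lines, 0 of 10653 genes (0.0%) had a response that limma called different, with 562 (5.28%) at an unadjusted p under 0.05 and 0 called by limma-voom. Among the 10 genes the difference of the responses, CAL-62 minus BCPAP, ranged from -1.0 for NFKBIE to 0.25 for NFKB1 (limma adjusted p = 0.834 to 0.979). NFKBIE was the only member at an unadjusted p under 0.05. A response seen in CAL-62 and not in BCPAP is thus not shown to be specific to CAL-62.

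Changes were also compared between the replicate numbers. In CAL-62 REL, NFKBIA and TNFAIP3, 3 of the 10, had changes of opposite sign in the 2 numbers, each positive in number 1 and negative in number 2; 23.3% of all CAL-62 genes had opposite signs and 11.3% had them in this direction. The median change of the 10 genes was -0.16 in number 1 and -0.59 in number 2. In 8 of the 10 genes DMSO replicate 2 stood above DMSO replicate 1, as it did for 47.5% of all genes, and after THZ1 replicate 2 stood above replicate 1 in 4 of the 10 (47.6% of all genes). In BCPAP replicate 2 stood above replicate 1 for 8 genes under DMSO (47.2% of all genes) and, after THZ1, for 7 (48.3%). There NFKBIA and NFKBIB had opposite signs, where 26.6% of all genes did, 11.9% with the sign positive in number 1, and the medians were -0.10 and -0.11. The labels do not say what a replicate number marks.

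Classical NF-κB targets were counted in the same way. Of 35 target genes, 26 were tested in CAL-62, and 12 had opposite signs in the 2 numbers, all 12 positive in number 1 and negative in number 2. Over all CAL-62 genes 11.3% had signs in this direction, and the list was not tested against other genes. The median change of the list was 0.53 in number 1 and -0.72 in number 2. DMSO replicate 2 exceeded DMSO replicate 1 for 21 of the 26, as it did for 47.5% of all CAL-62 genes. Over both numbers the median was -0.42, and without DMSO replicate 2 of CAL-62 it was 0.13. The next 2 targets were chosen after their values were seen. The neutrophil chemokine IL8 had 5.52 and 5.46 after THZ1, against 3.23 and 35.5 under DMSO. The cytokine LIF had 70.3 and 36 after THZ1, against 38.0 and 214 under DMSO. In each case the high library was DMSO replicate 2 of CAL-62. TNFAIP3, NFKBIA, RELA, RELB, NFKBIE and BCL3 were also highest there, whereas NFKB1, NFKB2, REL and NFKBIB were not. How many of all genes were highest in that library was not counted. Of the 26, 1 was called, where 4.62% of all CAL-62 genes were. That gene was IRF1, a transcription factor of the interferon response, which fell to 0.999 and 0.918 after THZ1, against 3.56 and 5.04 under DMSO (change -1.42, SE 0.24, limma adjusted p = 0.0245). In BCPAP 28 targets were tested, 0 were called, and the medians were 0.055 in number 1 and 0.019 in number 2.

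**Figure D5:**
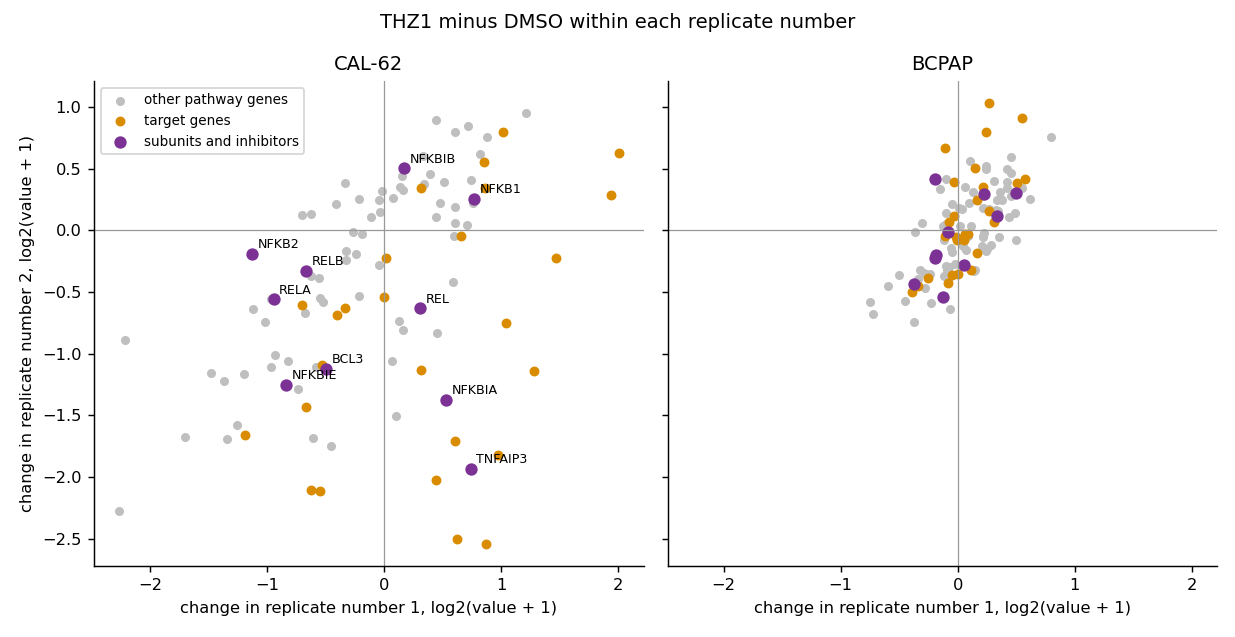
Change after THZ1 within replicate number 1 (horizontal) and number 2 (vertical), in log2(value + 1), for the 10 subunit and inhibitor genes (purple, named for CAL-62), target genes (orange) and other pathway genes (grey); CAL-62 left, BCPAP right. In CAL-62 TNFAIP3, NFKBIA and REL and 12 of 26 target genes lie in the lower right quadrant, positive in number 1 and negative in number 2.

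Calls were also made along the signalling chain around the 10 genes. Over all lists of pathway genes outside the 10, 93 genes were tested in CAL-62, of which 7 were called lower and 1 higher, with a median change of -0.25; of all CAL-62 genes 4.04% were called lower and 0.581% higher. In BCPAP 104 were tested and 0 called, with a median of 0.045. Of 18 receptors, 8 were tested in CAL-62 with a median of -0.59, and 1 was called, TNFRSF1A, the main receptor of tumour necrosis factor. TNFRSF1A fell to 7.94 and 10.5 after THZ1, against 41.9 and 54.9 under DMSO (change -2.27, SE 0.25, limma adjusted p = 0.0146), and its call was lost without either CAL-62 DMSO library. BCPAP had 39.1 and 40.7 after THZ1, against 51.0 and 68.9 under DMSO (change -0.56, SE 0.25, limma adjusted p = 0.932). TNFRSF12A, the receptor of the cytokine TWEAK, had 55.7 and 103 in CAL-62 after THZ1, against 158 and 231 under DMSO (limma adjusted p = 0.0684). Without THZ1 replicate 2 of CAL-62 its change was -1.76. In BCPAP it was also lower after THZ1, without overlap (change -0.94 to -0.40 when single libraries were left out).

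Among 20 IκB kinase and upstream kinase genes, 19 were tested in CAL-62 and 2 were called, both lower, where 4.04% of all CAL-62 genes were. MAP3K14, the kinase that starts the non-canonical pathway, fell to 1.52 and 1.41 after THZ1, against 5.04 and 6.19 under DMSO (change -1.42, SE 0.24, limma adjusted p = 0.0265). IRAK2, a kinase of the interleukin 1 receptor, fell to 2.38 and 2.71 after THZ1, against 7.59 and 11.0 under DMSO (change -1.52, SE 0.25, limma adjusted p = 0.0232). TAB1, a partner of the kinase MAP3K7, had 1.33 and 6.04 after THZ1, against 9.78 and 12.1 under DMSO (change -1.55, limma adjusted p = 0.0794). Without THZ1 replicate 2 of CAL-62 the TAB1 change was -2.35 and passed the test (limma adjusted p = 0.0265), and without THZ1 replicate 1 it was -0.75. In BCPAP, TAB1 (change -0.70) and IRAK2 (-0.41) were also lower without overlap, and the MAP3K14 groups overlapped (-0.21). BCPAP gave no call among 20 tested, with medians of -0.22 in CAL-62 and 0.047 in BCPAP. Without DMSO replicate 1 of its own line the median was -0.00071 in CAL-62 and -0.097 in BCPAP.

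Of 24 adaptor and ubiquitin genes, 22 were tested in CAL-62, 2 were called lower and 1 higher, where 4.04% and 0.581% of all CAL-62 genes were. TRAF2, the adaptor of the tumour necrosis factor receptors, fell to 9.26 and 10.2 after THZ1, against 22.5 and 24.2 under DMSO (change -1.18, SE 0.20, limma adjusted p = 0.0261). TRAF6, the ubiquitin ligase of interleukin 1 signalling, fell to 0.948 and 0.793 after THZ1, against 2.81 and 2.87 under DMSO (change -1.04, SE 0.23, limma adjusted p = 0.0476). SKP1, a core subunit of the ligase that marks IκB proteins for degradation among many other substrates, rose to 175 and 122 after THZ1, against 75.2 and 62.8 under DMSO (change 1.08, SE 0.23, limma adjusted p = 0.0437). SKP1's change was 0.66 when libraries were scaled to the sum of reads and 0.14 when they were scaled to ribosomal protein genes, and it was not called in either. BIRC3 had 6.05 and 1.28 after THZ1 against 9.31 and 8.86 under DMSO, and TRAF4 had 3.74 and 8.46 against 14.4 and 29.2, without a call (limma adjusted p = 0.113 and 0.0615). BIRC3 passed the test without THZ1 replicate 1 of CAL-62 (change -2.15, limma adjusted p = 0.0314) and had a change of -0.52 without THZ1 replicate 2. TRAF4 passed it without THZ1 replicate 2 of CAL-62 (change -2.19, limma adjusted p = 0.0452). In BCPAP, without a call, TRAF2 was also lower (change -0.43) and SKP1 higher (0.45 to 0.60 when single libraries were left out). Neither overlapped there, whereas TRAF6 did (change -0.05). The median of this list was -0.29 in CAL-62 and -0.045 in BCPAP, where 23 were tested.

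Of 7 further IκB-like and nuclear partners, 6 were tested in each line. NFKBID, a nuclear IκB protein, was called lower in CAL-62, where 4.04% of all genes were. NFKBID fell to 1.11 and 1.02 after THZ1, against 2.73 and 3.22 under DMSO (change -0.94, SE 0.21, limma adjusted p = 0.0461). NFKBIZ, another nuclear IκB protein and a target of the pathway, had 34.4 and 31.1 after THZ1, against 8.28 and 25.4 under DMSO (change 1.11, SE 0.44, limma adjusted p = 0.143). Its change was 0.36 without DMSO replicate 1 of CAL-62 and 1.86 without DMSO replicate 2. COMMD1, which promotes RELA degradation, had 27.5 and 31.3 after THZ1, against 16.4 and 17.0 under DMSO (change 0.78, limma adjusted p = 0.0657). The list's medians were -0.055 in CAL-62 and 0.15 in BCPAP, and leaving out single libraries gave -0.16 to 0.089 and -0.10 to 0.27.

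Of 17 negative regulators 15 were tested in each line and 0 were called. In CAL-62, 10 of them had a positive change and 5 a negative one, where 48.2% of all genes were negative. The BCPAP changes were positive for 12 and negative for 3, where 41.4% of all genes were negative. ZC3H12A, an RNase that degrades cytokine transcripts, had 12.9 and 10.5 in CAL-62 after THZ1, against 2.47 and 6.45 under DMSO (change 1.31, limma adjusted p = 0.0762). It was also higher in BCPAP without overlap (change 0.45 to 1.01 when single libraries were left out). FAM105B, the deubiquitinase OTULIN, had 11.6 and 8.48 in BCPAP after THZ1, against 6.26 and 4.62 under DMSO (change 0.77, limma adjusted p = 0.932). The list's medians were 0.30 in CAL-62 and 0.31 in BCPAP, but under scaling to the sum of reads the CAL-62 median was -0.11, and without THZ1 replicate 1 of CAL-62 it was 0.020. Of 12 ligands, TNFSF9 alone was tested in CAL-62, and 6 were tested in BCPAP without a call. The calls of these 8 pathway genes in CAL-62 rest on few libraries. When each of the 8 libraries was left out in turn, TNFRSF1A stayed called in 6 fits, IRAK2, IRF1, TRAF2 and SKP1 in 3, MAP3K14 and TRAF6 in 2, and NFKBID in 0. Without BCPAP THZ1 replicate 1 or 2, each of the 8 except NFKBID remained called, whereas without CAL-62 DMSO replicate 1 or 2 none of the 8 did.

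The order of the levels differed in detail between groups. In CAL-62 after THZ1 the means ran RELA 34.4, NFKB1 26.0, NFKBIA 19.2, NFKBIB 14.9, NFKB2 8.96, TNFAIP3 3.98, RELB 2.83, BCL3 1.54, REL 1.42 and NFKBIE 0.954. Of these neighbours, NFKB2 and TNFAIP3 were the 1 pair whose libraries did not overlap. Under DMSO the CAL-62 order was RELA 57.1, NFKBIA 26.2, NFKB1 17.6, NFKB2 14.1, NFKBIB 11.3, TNFAIP3 9.36, RELB 4.18, BCL3 3.50, NFKBIE 3.05 and REL 1.57. There RELA stood clear of NFKBIA, NFKB1 of NFKB2, NFKB2 of NFKBIB, and NFKBIE of REL, and the other neighbours overlapped. In BCPAP after THZ1 the order was RELA 53.9, NFKB2 18.3, NFKBIA 18.2, NFKBIB 16.9, TNFAIP3 15.1, NFKB1 13.8, BCL3 6.77, RELB 5.89, NFKBIE 2.82 and REL 1.93. The BCPAP DMSO libraries had RELA 61.9, NFKB2 21.3, NFKBIA 20.0, NFKBIB 15, TNFAIP3 12.6, NFKB1 11.4, BCL3 9.36, RELB 8.11, NFKBIE 2.93 and REL 1.21. In both BCPAP groups the libraries of NFKB2 and NFKBIA, of TNFAIP3 and NFKB1, and of BCL3 and RELB overlapped, and RELA stood clear of all others. The tables of the lines were scaled separately, so levels across lines are given side by side with no test.

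For each gene the non-member whose log2 level, centred on the mean of each line, followed it most closely over the 8 libraries was found among 7013 genes. These were UBFD1 for NFKB1 (Pearson r = 0.990), NARFL for NFKB2 (0.991), COMMD5 for RELA (0.994), UTP18 for RELB (0.974) and IKZF5 for REL (0.998). For the inhibitors and regulators they were CDKN1B for NFKBIA (r = 0.981), C1orf122 for NFKBIB (0.998), FZR1 for NFKBIE (0.991), BHLHE40 for TNFAIP3 (0.987) and CDKN2C for BCL3 (0.996). The points share libraries, depth and scaling, and the highest of so many coefficients is high by selection, so they are given as a description.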

How the data were processed

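Poly(A)-selected RNA of 8 libraries was measured, 2 in each of 4 groups. The deposited files hold 1 RPKM-type value per gene, made by the authors; the file headers name the sample and no unit, so RPKM was inferred from the values. Per the submitters' processing notes, Bowtie2, DESeq2 and the build hg19 were used, without roles or versions; annotation and strand setting are not given in the sources used, so reads of overlapping antisense genes cannot be told apart. Each table lists genes with a DMSO mean above about 1 in its line (11513 genes in CAL-62, 11900 in BCPAP, 10698 in both), so genes first expressed after THZ1 were not analysed here. NFKBIE, TRAF6 and IRF1, with a mean below 1 after THZ1 in CAL-62, were thus listed there through their DMSO levels. A gene with such levels exchanged between the groups would not have been listed. The values are scaled like median-of-ratios within each line, so a change in total mRNA would not show. Whole reads were recovered within 0.02 reads for 12714 of 12715 genes and served for depth and 1 alternative.

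limma 3.58.1 (R 4.3.3) was fitted to log2(value + 1) with a trended prior variance, on genes with a mean of at least 1, all 8 libraries and 4 group means; p-values are two-sided. The plan's count test was replaced by its stated fallback because the files hold normalized values. The fit was also run on simulated reads, drawn independently for each library at a fixed spread. That run does not cover deviations shared by libraries of the same replicate number. The 10 genes were fixed by name. Other pathway genes are named where called, or where they had the largest change without overlap in their list at a mean of at least 5; a few more, marked as such, were chosen after their values were seen. The 10 genes and the lists were chosen with earlier results of these data known. Alternatives were the pseudocount, the filter, the scaling, limma-voom, each line's own 4 libraries, a replicate block and leaving out each library.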

Additional observations from a re-analysis of the deposited data

How the results depend on the processing

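Of 30 values for the 10 genes (a change in each line and the difference between lines), 9 kept their sign and their side of the threshold under every alternative. The number of genes called in CAL-62, 525, was 196 with a mean of at least 5, 1506 scaled to the sum of reads (10 higher, 1496 lower), 3141 scaled to 80 ribosomal protein genes (4 higher, 3137 lower), 743 with limma-voom on genes listed in both lines (165 higher, 578 lower), 0 in a fit on the 4 CAL-62 libraries, and 0 to 811 without single libraries. In BCPAP it was 0 to 1 without single libraries. The difference between lines gave 1 gene with a pseudocount of 0.1. The median change of all CAL-62 genes moved to -0.33 under the sum of reads and -0.76 under ribosomal protein genes, and in BCPAP to -0.094 and -0.13.

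With the replicate number as a block, 4563 CAL-62 genes were called (2503 higher, 2060 lower), among them RELA (-0.75, limma adjusted p = 0.0104), BCL3 (-0.81, 0.0304) and NFKBIE (0.0090), and 0 in BCPAP. Deviations from group means of same-numbered libraries correlated at 0.433 to 0.779 over the 6 pairs of groups; the labels do not say what the numbers mark, and 2 numbers are too few to establish pairs.

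Scaled to ribosomal protein genes, the CAL-62 change was -0.39 for NFKB1, -1.52 for NFKB2 (limma adjusted p = 0.0192), -1.68 for RELA (0.00912), -1.32 for NFKBIA (0.0466), -0.54 for NFKBIB, -1.45 for BCL3 (0.0379), -0.13 for COMMD1 and -0.68 for FAM105B. NFKB2, RELA, NFKBIA and BCL3 were then called beside NFKBIE. The BCPAP change of NFKBIB was then -0.11, and the differences between lines were -0.44 for NFKB1 and -0.43 for NFKBIB. Scaled to the sum of reads, CAL-62 changes were -1.17 for RELA (called, limma adjusted p = 0.0434), -0.058 for NFKBIB and -0.27 for FAM105B, and NFKBIB in BCPAP was -0.063. NFKBIE in CAL-62 was -0.43 (limma adjusted p = 0.0566) with a pseudocount of 5 and -1.04 (0.0921) in the fit on 4 libraries. The RELB difference was 0.030 with a pseudocount of 5. REL and NFKBIE gave no value with a mean of at least 5. The cause of these shifts was not tested.

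When single libraries were left out, changes in CAL-62 ranged from 0.27 to 0.75 for NFKB1, -1.12 to -0.38 for RELA, -1.07 to -0.24 for NFKB2, -1.12 to 0.13 for RELB, -0.63 to 0.31 for REL, -0.91 to 0.069 for NFKBIA, -0.032 to 0.71 for NFKBIB, -1.19 to -0.90 for NFKBIE, -1.82 to 0.63 for TNFAIP3 and -0.43 to 0.60 for FAM105B. In BCPAP they ranged from -0.37 to 0.15 for NFKBIA, -0.27 to 0.49 for NFKBIB, -0.18 to 0.089 for NFKBIE, -0.0079 to 0.46 for TNFAIP3, -1.05 to 0.39 for BCL3, -0.10 to 0.084 for IRF1, -0.41 to 0.00078 for MAP3K14, -0.27 to 0.11 for NFKBIZ, -0.42 to 0.12 for TRAF4 and -0.25 to 0.16 for TRAF6. The difference between lines ranged from -0.72 to 0.53 for RELB, -0.80 to 0.18 for NFKBIA, -0.16 to 0.61 for NFKBIB, -2.05 to 0.40 for TNFAIP3 and -1.20 to 0.24 for BCL3. A group left with 1 library is assumed to vary like the others.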

Other observations

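Among the 45 pairs of the 10 genes, 29 had a positive correlation over the 8 libraries after each line's mean was removed. NFKB2 followed RELA (Pearson r = 0.931), whereas NFKB1 ran against NFKB2 (r = -0.971) and against RELA (r = -0.941). The points share libraries and scaling, and the coefficients are descriptions.

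In DMSO replicate 2 of CAL-62 several secreted NF-κB targets stood above the other 3 CAL-62 libraries. They were chosen after their values were seen, and neither the whole target list nor all genes were counted in this way. Other targets went the other way: NFKBIZ and ZC3H12A were higher in both CAL-62 THZ1 libraries, and BIRC3 in CAL-62 DMSO replicate 1. CSF2, a growth factor of granulocytes and macrophages, had 3.06 and 4.93 after THZ1, against 1.07 and 20.0 under DMSO. CXCL1, a neutrophil chemokine, had 31.8 and 14.6 after THZ1, against 23.1 and 62.3 under DMSO. CXCL2, its close relative, had 7.94 and 13.9 after THZ1, against 3.35 and 24.1 under DMSO. IL6 had 0.489 and 1.08 after THZ1, against 1.29 and 7.96 under DMSO. In BCPAP the same chemokine CXCL1 had 78.1 and 53.1 after THZ1, against 77.7 and 68.2 under DMSO.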
